A study of Schizosaccharomyces pombe with 6 samples.

Results

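A set of 10 genes of central metabolism, translation and the cytoskeleton are described here along their length for Pds5-GFP and for dimethylated lysine 9 of histone H3 (H3K9me2) in fission yeast. They are tdh1, eno101, pgk1, fba1, adh1, tpi1 and gpm1 of glycolysis and fermentation, tef101 and tef103 of translation elongation, and act1, which encodes actin. The genes were taken from a list and not chosen by a value on the arrays. Earlier results of these data were known when the list was made. They are 10 of 4950 protein-coding genes with at least 2 probes in the gene body, out of 5113 in the annotation, and 113 probes lie in them or within 1 kb on either side. The study hybridised 6 Agilent tiling arrays, each with ChIP DNA in Cy5 against whole-cell extract DNA in Cy3 from the same strain. Pds5-GFP was precipitated with an antibody against GFP from 1 swi6D, 1 clr4D and 2 wild-type samples, and H3K9me2 from 1 pds5D and 1 wild-type sample. The strains named swi6D, clr4D and pds5D carry deletions of the gene in their name. Cells were in log phase in rich medium (YEA) at 30 °C and were fixed with 3% paraformaldehyde. For Pds5-GFP, fixation also used the cross-linker DMA and came after a hold of 2 h at 18 °C. Chromatin was sheared to fragments of 500 to 1000 bp, and all ChIP and extract DNA was amplified by PCR. Whether the 2 wild-type Pds5-GFP samples are separate cultures is not stated in the labels, and p-values therefore reflect the difference between that pair of arrays, which may be technical. An array of an untagged strain was not analysed here, so the background of the GFP antibody over these genes is not known from these data.

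Pds5 is a regulatory subunit that binds the cohesin ring, the complex that holds sister chromatids together and shapes chromosome loops. In yeast, cohesin is known to accumulate towards the ends of transcribed genes, in particular between genes that converge. Clr4 is the methyltransferase that places the H3K9 mark, and Swi6 is the HP1-family protein that reads it, chiefly at centromeres, chromosome ends, the mating-type region and a few islands over meiotic genes. The glycolytic enzymes, elongation factor 1-alpha and actin are among the most abundant proteins of growing yeast cells. RNA was not measured on these arrays, so transcription itself could not be checked. As a stand-in, the codon adaptation index was computed from the coding sequences with the cytosolic ribosomal protein genes as the standard. All 10 genes lay at or above the 98.9th percentile of protein-coding genes by that index, from 0.778 in act1 to 0.844 in tef103. Their bodies were also rich in G and C, from 40.1% in act1 to 50.6% in eno101, and 9 of the 10 lay at or above the 97.7th percentile of all genes, with act1 at the 88.3rd.

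Values are log2 of the Cy5 over the Cy3 signal minus the array's median, so 0 is the median probe of an array. A window's value is the mean over the probes whose centre lies in it, for the gene body, the 1 kb before the start and the 1 kb after the end. Probes of 60 bases stand every 300 bp, and each gene body held 2 to 6 of them. On the 6 arrays 98.4% to 99.98% of spots stood well above background and none was saturated. Array positions were placed on the reference by fixed shifts, and with offsets of 50 bp the best match of extract signal to base composition around each gene lay within 100 bp of the position used. The deleted genes were near absent from the extract of their own strain, with coding probes at -6.99 for pds5 in pds5D, -6.85 for swi6 in swi6D and -6.55 for clr4 in clr4D. The dyes ran the same way on every array, so a dye bias stays in the levels.

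The sequences behind the main readings show what the probes could and could not tell apart. All are from the RefSeq genome (ASM294v3), and they are given for the position at which a tile was placed, which is not known to better than about 100 bp. The first pair is the same coding stretch of tef101 (minus strand, III:268921-269040) and tef103 (minus strand, II:626930-627049), 120 bases each, shown because probes of these genes can match near-identical copies. Capitals mark the 1 base that differs.
tef101: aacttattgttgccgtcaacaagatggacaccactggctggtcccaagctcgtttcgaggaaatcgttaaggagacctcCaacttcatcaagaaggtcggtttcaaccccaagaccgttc
tef103: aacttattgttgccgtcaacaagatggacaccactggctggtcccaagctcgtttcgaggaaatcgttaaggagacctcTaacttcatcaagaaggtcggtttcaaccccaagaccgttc
The next is the middle of eno101, where Pds5-GFP was lowest among its body probes in swi6D and both wild-type arrays (plus strand, II:2201730-2202029), a stretch with 52.0% G and C. The last are the tiles farthest past the ends of tef101, in the coding sequence of efr3 (plus strand, III:267030-267329), and of act1, in that of mei4 (plus strand, II:1474620-1474739). They hold 39.7% and 41.7% G and C and carried some of the highest Pds5-GFP values near the 10 genes. Capitals mark the 60 bases of the tile.
eno101: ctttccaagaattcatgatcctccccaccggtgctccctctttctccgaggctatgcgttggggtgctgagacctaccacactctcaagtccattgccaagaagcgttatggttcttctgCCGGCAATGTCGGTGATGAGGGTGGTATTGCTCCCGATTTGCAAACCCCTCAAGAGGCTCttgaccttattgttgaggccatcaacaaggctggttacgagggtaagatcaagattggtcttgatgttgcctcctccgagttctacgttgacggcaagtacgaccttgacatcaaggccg
efr3: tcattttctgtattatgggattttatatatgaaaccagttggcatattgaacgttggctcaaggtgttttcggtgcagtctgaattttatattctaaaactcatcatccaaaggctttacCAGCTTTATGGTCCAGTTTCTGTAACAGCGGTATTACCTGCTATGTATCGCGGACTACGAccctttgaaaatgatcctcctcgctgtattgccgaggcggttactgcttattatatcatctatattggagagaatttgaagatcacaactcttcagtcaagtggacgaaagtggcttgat
mei4: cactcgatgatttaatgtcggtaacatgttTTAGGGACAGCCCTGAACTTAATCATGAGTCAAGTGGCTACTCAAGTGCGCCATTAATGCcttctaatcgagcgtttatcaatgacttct
Over the 60-base tile in eno101, Pds5-GFP stood at -1.16 in swi6D, -0.64 in clr4D and -0.94 and -1.01 in wild type. Over that in efr3 it stood at 1.59 in swi6D, 1.57 in clr4D and 1.36 and 1.40 in wild type, and over that in mei4 at 1.34, 1.60, 1.86 and 1.77 in the same order. Copies also limited tdh1, whose coding sequence is 93.0% identical to that of gpd3. Of the 60-base stretches of each gene, 91.8% in tef103, 88.7% in tef101 and 51.4% in tdh1 matched another gene in at least 54 bases, against 0% in the other 7 genes.

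In wild type, Pds5-GFP was low over the bodies of the 7 glycolytic and fermentation genes and high over act1. Enolase, eno101 (SPBC1815.01, II:2201196-2202652, plus strand), was the lowest of the 10. Its body stood at -0.85 in the swi6D array, -0.62 in the clr4D array and -0.78 and -0.78 in the wild-type arrays, the 1.7th percentile of all genes (limma level -0.78, SE 0.061, adjusted p = 2.14e-35). All 5 body probes of eno101 were below the array median in all 4 arrays. Alcohol dehydrogenase, adh1 (SPCC13B11.01, III:1591292-1592889, plus strand), which makes ethanol from acetaldehyde, had -0.51 in swi6D, -0.63 in clr4D and -0.67 and -0.60 in wild type (5.9th percentile). Phosphoglycerate kinase, pgk1 (SPBC14F5.04C, II:4157821-4159461, minus strand), had -0.59 in swi6D, -0.34 in clr4D and -0.62 and -0.49 in wild type (9.0th percentile). In adh1 and pgk1 too every array lay below 0, while swi6D in adh1 and clr4D in pgk1 lay above both wild-type arrays. Fructose-bisphosphate aldolase, fba1 (SPBC19C2.07, II:1688321-1689599, plus strand), had -0.61 in swi6D, -0.59 in clr4D and -0.61 and -0.34 in wild type. Phosphoglycerate mutase, gpm1 (SPAC26F1.06, I:5173864-5174654, minus strand), had -0.38 in swi6D, -0.28 in clr4D and -0.43 and -0.50 in wild type, the last from 1 of its 2 body probes because the other spot was an outlier. These were the 13.5th and 14.7th percentiles, and no array of either gene reached 0.

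Triosephosphate isomerase, tpi1 (SPCC24B10.21, III:939913-940869, plus strand), had -0.06 in swi6D, -0.10 in clr4D and -0.34 and -0.18 in wild type. Glyceraldehyde-3-phosphate dehydrogenase, tdh1 (SPBC32F12.11, II:2807595-2809051, plus strand), had -0.24 in swi6D, -0.29 in clr4D and -0.13 and -0.25 in wild type. They were nearer the median than the other 5 glycolytic genes, at the 29.7th and 35.3rd percentiles. The elongation factor 1-alpha genes, whose product brings aminoacyl-tRNA to the ribosome, stood above 0. For tef101 (SPCC794.09C, III:267955-269516, minus strand) the body had 0.46 in swi6D, 0.70 in clr4D and 0.25 and 0.48 in wild type. For tef103 (SPBC839.15C, II:626004-627522, minus strand) it had 0.16 in swi6D, 0.33 in clr4D and 0.02 and 0.16 in wild type. The act1 body (SPBC32H8.12C, II:1475485-1477333, minus strand) had 0.82 in swi6D, 0.86 in clr4D and 0.91 and 0.99 in wild type, the 93.4th percentile, and every array was above those of the other 9 genes.

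By limma against the array median, with Benjamini-Hochberg adjustment over all genes, 7 of the 10 bodies were lower and 2 were higher in wild type, and tef103 did not pass (0.09, adjusted p = 0.148). Of all genes, 40.9% were lower and 41.2% were higher, since the pooled standard error of 0.061 is small beside the spread of genes along the chromosome. The share of lower bodies was therefore above the background and the share of higher bodies below it, and the median of the 10 was -0.36 against -0.01 over all genes. By size, act1 alone stood 0.58 or more (1.5-fold) above the median in both wild-type arrays, as did 15.0% of all genes. eno101 and adh1 stood as far below it in both, as did 6.24% of all genes. In the order of wild-type levels (act1, tef101, tef103, tdh1, tpi1, gpm1, fba1, pgk1, adh1, eno101) the 2 arrays of neighbours overlapped between tdh1 and tpi1, and along the run from gpm1 to adh1, and not elsewhere. The whole-cell extract over the same bodies was itself low in 4 genes: in the 4 Pds5-GFP arrays it ran from -1.76 to -1.13 in eno101, -1.21 to -0.83 in fba1, -1.35 to -1.07 in tpi1 and -2.05 to -1.24 in gpm1. With the relation of each window to its G and C content taken out over all genes, an alternative added after the data were seen, 6 of the 7 lower bodies still passed. tdh1 did not (-0.06, adjusted p = 0.356 by limma), and tef103 became higher (0.23, adjusted p = 3.03e-04 by limma).

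**Figure D1:**
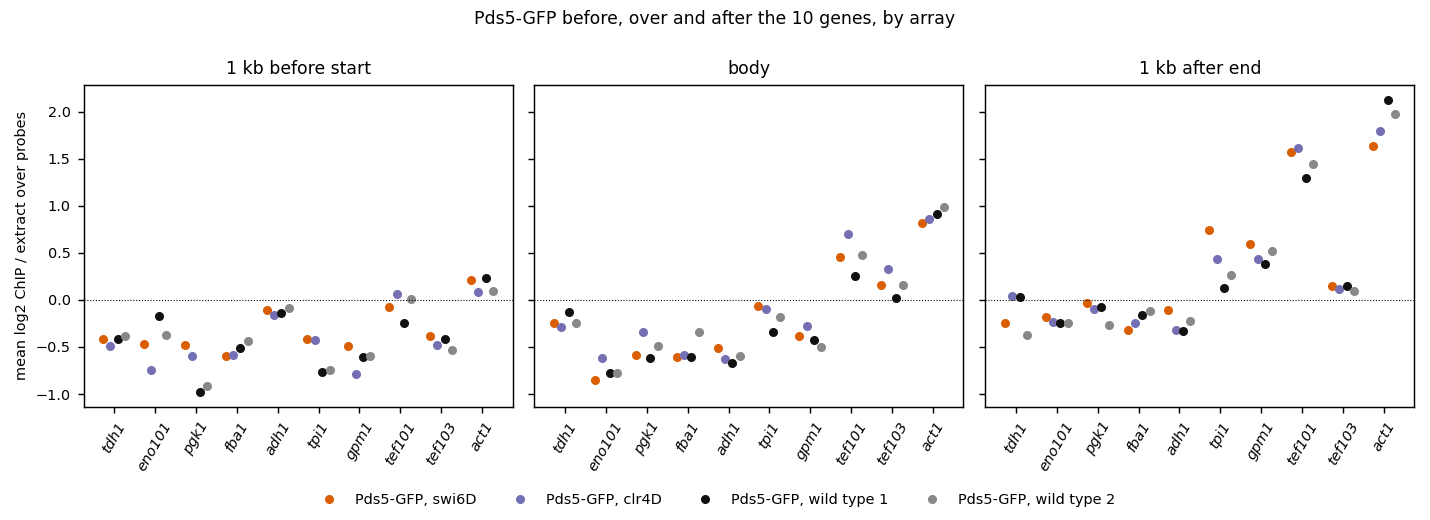
Mean log2 ChIP over extract of Pds5-GFP for the 1 kb before the start, the body and the 1 kb after the end of each of the 10 genes. Each point is 1 array (swi6D, clr4D and 2 of wild type), and the dotted line is the array median; most bodies lie below it, while act1 and tef101 lie above it in the body and higher still after the end.

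Within a body the probes were not level. In act1 the 4 probes up to the stop codon averaged 0.52 in swi6D, 0.58 in clr4D and 0.54 and 0.64 in wild type. The 2 probes past the stop codon, in the 664 bases that the annotation places after it, averaged 1.44 in swi6D, 1.43 in clr4D and 1.65 and 1.69 in wild type. In tef101 the step was sharper. Its 3 probes up to the stop codon averaged 0.01 in swi6D, 0.33 in clr4D and -0.11 and 0.11 in wild type. All of them carry a name suffix (f or Rf) that was taken here to mark probes shared between copies. The sources used here do not give its meaning. Its 1 probe past the stop codon read 1.80 in swi6D, 1.82 in clr4D and 1.33 and 1.60 in wild type. The last probe was thus the highest of the body in all 4 arrays. In tef103, 4 of the 5 body probes carry the shared suffix, and in tdh1 3 of 4, so that signal from tef101, tef102 and tef103, and from tdh1 and gpd3, cannot be told apart there. In adh1 the probe 138 bp into the gene averaged -0.24 in wild type, against -0.85 to -0.53 at the 4 farther in. In pgk1 the 4 probes nearer the start averaged -0.86 to -0.61 and the 2 nearer the end -0.17 and -0.24 in wild type.

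**Figure D2:**
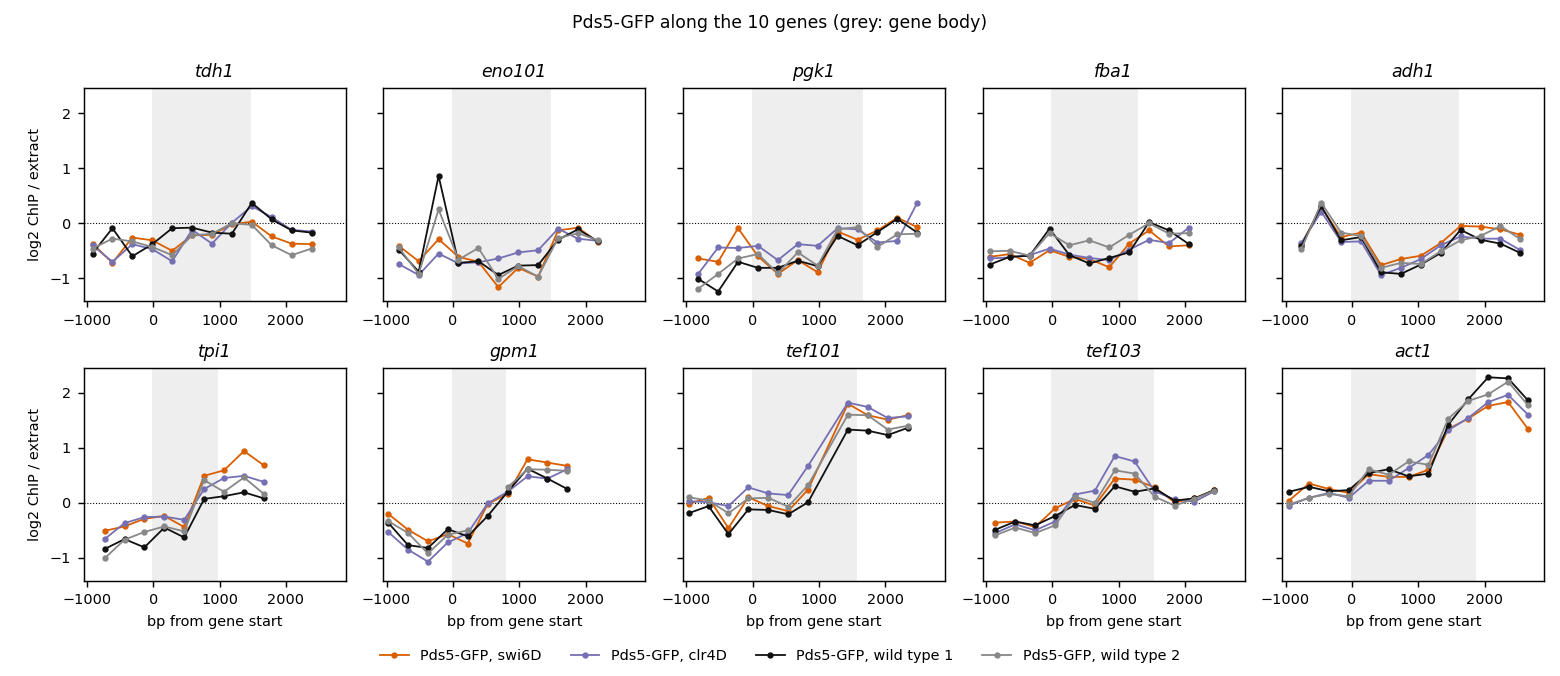
Pds5-GFP at each probe along the 10 genes, as log2 ChIP over extract (vertical) against the distance in bp from the gene's start in the direction of transcription (horizontal). Lines are the swi6D, clr4D and 2 wild-type arrays and grey marks the gene body; the wild-type lines of act1 reach 2.26 and 2.20 at 505 bp past the end, and eno101 has a single probe at 216 bp before the start where both wild-type arrays lie above both mutants.

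Before the start, 7 of the 10 windows were lower than the array median in wild type and act1 was higher, against 48.3% lower and 28.7% higher of all genes. The lowest was pgk1, with -0.48 in swi6D, -0.60 in clr4D and -0.98 and -0.91 in wild type (0.5th percentile), followed by tpi1 with -0.41 in swi6D, -0.43 in clr4D and -0.77 and -0.74 in wild type (3.7th percentile). Both mutants lay above both wild-type arrays in these 2 genes. gpm1 averaged -0.60 ± 0.01 in wild type, fba1 -0.48 ± 0.05, tef103 -0.47 ± 0.08, tdh1 -0.39 ± 0.02 and eno101 -0.27 ± 0.14 (SD, n = 2 each). act1 averaged 0.16 ± 0.10, tef101 -0.12 ± 0.17 and adh1 -0.11 ± 0.04 (SD, n = 2 each), and the last 2 did not pass the limma test (adjusted p = 0.143 and 0.15). The eno101 window held a high probe, 216 bp before the start, among low ones. With G and C content taken out, eno101 and adh1 turned to the other side of the median (0.15 and 0.21, adjusted p = 0.0463 and 0.00579 by limma), and tdh1 lost its call (-0.01, adjusted p = 0.89 by limma). The call of act1 (adjusted p = 0.0419 by limma) was lost under 5 of 12 alternatives, with values from 0.06 with loess (adjusted p = 0.526) to 0.19 with normexp (adjusted p = 0.142).

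After the end, 4 genes were higher than the median in wild type and 4 lower, against 46.8% and 32.1% of all genes. act1 had 1.64 in swi6D, 1.80 in clr4D and 2.13 and 1.98 in wild type (99.4th percentile). tef101 had 1.57 in swi6D, 1.62 in clr4D and 1.30 and 1.44 in wild type (96.4th percentile). In act1 both mutants lay below both wild-type arrays and in tef101 both lay above. gpm1 had 0.59 in swi6D, 0.43 in clr4D and 0.38 and 0.52 in wild type, and tpi1 0.74 in swi6D, 0.44 in clr4D and 0.13 and 0.27 in wild type. adh1, eno101, pgk1 and fba1 averaged from -0.28 to -0.14 in wild type and were lower than the median, fba1 narrowly so (adjusted p = 0.0494 by limma). tef103 averaged 0.12 ± 0.05, and tdh1 -0.17 ± 0.28 with its 2 wild-type arrays at 0.03 and -0.37 (SD, n = 2 each). With normexp and with loess only eno101 passed as lower. The extract after the end of eno101 was itself low, at -1.90 in swi6D, -2.09 in clr4D and -2.45 and -1.83 in wild type. The call of tpi1 (0.20, adjusted p = 0.00865 by limma) was lost with G and C content taken out (0.06, adjusted p = 0.433) and with normexp (0.20, adjusted p = 0.11). On the ChIP channel alone gpm1 passed on the other side of the median (-0.27, adjusted p = 0.0405 by limma).

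The difference between the end and the body, in which the array's centring cancels, was positive in all 4 arrays for 8 of the 10 genes. It was 0.82 in swi6D, 0.94 in clr4D and 1.22 and 0.99 in wild type for act1 (limma 1.11, SE 0.071, adjusted p = 3.9e-51). For tef101 it was 1.11 in swi6D, 0.92 in clr4D and 1.05 and 0.96 in wild type, and for gpm1 0.97 in swi6D, 0.71 in clr4D and 0.80 and 1.01 in wild type. These 3 lay at the 98.9th percentile of all genes or above. The wild-type mean was 0.53 ± 0.00 in eno101, 0.46 ± 0.01 in tpi1, 0.38 ± 0.23 in pgk1, 0.36 ± 0.03 in adh1 and 0.34 ± 0.16 in fba1 (SD, n = 2 each). It was 0.02 ± 0.20 in tdh1 and 0.03 ± 0.15 in tef103 (SD, n = 2 each), whose arrays lay on both sides of 0. By limma 8 of the 10 passed as higher at the end and none as lower (0 also at an unadjusted p under 0.05), against 39.4% higher and 14.3% lower of all genes, and the median of the 10 was 0.42 against 0.09 over all genes. With G and C content taken out 5 of the 8 passed, eno101 with 0.17 (adjusted p = 0.0301 by limma), and pgk1, fba1 and adh1 did not (0.13, 0.03 and 0.09). tdh1 and tef103 then passed as lower at the end (-0.23 and -0.24, adjusted p = 0.00366 and 0.00194 by limma). On the ChIP channel alone, eno101, pgk1 and adh1 stood on the other side of 0 (-0.09, -0.01 and -0.03), none past the test. The calls that held under both alternatives were those of act1, tef101, gpm1 and tpi1.

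**Figure D3:**
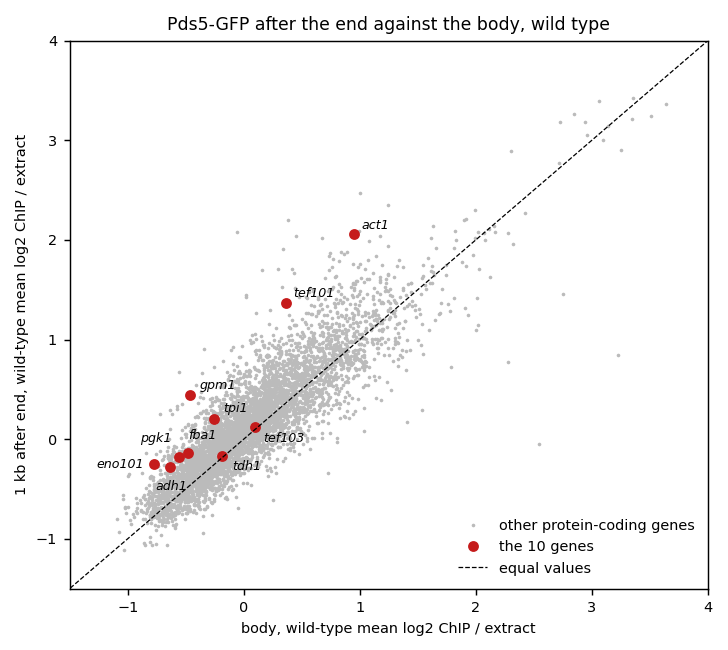
Wild-type mean Pds5-GFP (log2 ChIP over extract, 2 arrays) in the 1 kb after the end (vertical) against the body (horizontal) for 4948 protein-coding genes, with the 10 genes in red and equal values on the dashed line. act1, tef101 and gpm1 lie farthest above the line among the 10, and tdh1 and tef103 lie on it.

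The end exceeded the start as well. The end minus start difference passed as higher in 8 of the 10 genes and as lower in none by limma (0 also at an unadjusted p under 0.05), against 48.9% and 13.2% of all genes, and its median was 0.68 against 0.19 over all genes. It was 1.90 in act1, 1.49 in tef101, 1.05 in gpm1, 0.96 in tpi1, 0.77 in pgk1, 0.59 in tef103, 0.34 in fba1 and 0.22 in tdh1 in wild type (SE 0.093 each, limma). adh1 (-0.16) and eno101 (0.02) did not pass. In tdh1 the wild-type arrays differed, at 0.44 and 0.01. Its call (adjusted p = 0.028 by limma) stayed the same under 5 of 11 alternatives. Among those that lost it were normexp (0.27), the median over probes (0.19) and tiles moved to the left (0.07) or right (0.20). With G and C content taken out, eno101, adh1 and tdh1 passed in the other direction (-0.55, -0.64 and -0.28), and fba1 lost its call (-0.04). On the ChIP channel alone 5 of the 10 passed as higher at the end and 3 as lower (eno101 with -3.22, fba1 with -0.53 and adh1 with -0.79), while tdh1 and gpm1 did not pass. With a flank of 500 bp eno101 and adh1 passed as lower (-0.77 and -0.29). Genes with the most adapted codons outside the list also had positive medians. Over 232 other genes in the top 5% of codon adaptation the median was 0.33 for end minus start, 0.17 for end minus body and -0.06 for the body. Without ribosomal protein genes, the 131 that are left had 0.52, 0.21 and -0.08, and 117 ribosomal protein genes had 0.24, 0.11 and 0.02. Over 62 other genes with at least 45% G and C the medians were 0.24, 0.17 and -0.12. Across all genes the body level was nearly flat over codon adaptation (Spearman's rho -0.02 over 4941 genes) and over G and C (-0.033 over 4950), as a description across genes that share arrays and neighbours. None of the differences between the 10 and these groups was tested.

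**Figure D4:**
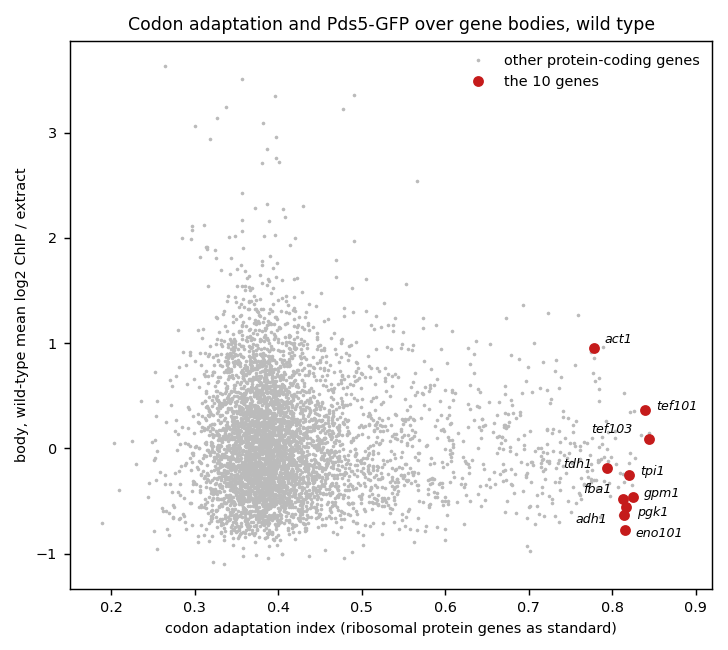
Wild-type mean Pds5-GFP over gene bodies (log2 ChIP over extract, 2 arrays) against the codon adaptation index, with the 10 genes in red. The 10 genes sit at the right edge, from 0.778 to 0.844, and run from -0.78 in eno101 to 0.95 in act1.

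The neighbours differed between the genes. Only protein-coding genes were taken as neighbours, so genes of other kinds may lie in the gaps given here. All 10 have 1 coding exon. In 4 of them the next gene downstream converges: mei4 after act1, efr3 after tef101, cut2 after eno101 and SPCC13B11.02C after adh1. mei4 encodes a transcription factor of meiosis and ends its annotated span 199 bp from the end of act1. efr3, whose budding yeast counterpart anchors a lipid kinase at the plasma membrane, overlaps the end of tef101 by 52 bp. cut2, the securin that restrains the protease separase, lies 347 bp from eno101. The bodies of these neighbours averaged 1.91 for mei4, 1.27 for efr3, -0.28 for cut2 and -0.21 for SPCC13B11.02C in wild type. The 1 kb after the end reaches into the bodies of these neighbours, so the same probes can enter both values. The 6 genes with a tandem neighbour had ends from -0.18 in pgk1 to 0.45 in gpm1. Among these, gpm1 was followed by SPAC26F1.07 (0.72), tpi1 by pog1 (0.67) and pgk1 by kap123 (0.48), a gene for a nuclear import receptor. The bodies of the 3 other tandem neighbours, efm4 (0.14), prp38 (-0.28) and tfb5 (-0.30), were lower. The gap to the tandem neighbour was 245 bp in tpi1, 538 bp in fba1 and 643 bp in tef103. It was 696 bp in pgk1, 822 bp in tdh1 and 1792 bp in gpm1. Except in gpm1, the same probes can enter both values here too. Over all genes the 1 kb after the end had a median of 0.18 for 2716 genes with a convergent neighbour and 0.01 for 2229 with a tandem one. The 4 and 6 listed genes had medians of 0.56 and -0.01, a difference that rests on act1 and tef101 and was not tested. The 1 kb before the start reached into a neighbour in gpm1, tef103 and act1. These were mug106 (tandem, gap -30 bp), thf1 (divergent, 479 bp) and mok12 (tandem, 673 bp). Their bodies averaged -0.69, -0.38 and -0.35 in wild type. The others had their upstream gene 1078 to 3454 bp away: mug124 (fba1), SPCC24B10.20 (tpi1), ugp1 (tef101), sam1 (pgk1), snp27 (adh1), pgm1 (tdh1) and cup1 (eno101). The lowest of these bodies were SPCC24B10.20 (-0.79) and sam1 (-0.48).

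Few windows of the 10 genes passed the test of swi6D or clr4D against wild type. No body passed in swi6D minus wild type by limma (0 of 10 at an unadjusted p under 0.05), where 0.747% of all genes were higher and 3.72% lower by limma, and the differences ran from -0.13 in act1 and fba1 to 0.19 in tpi1. In clr4D minus wild type only tef101 passed, higher by 0.33 (SE 0.106, adjusted p = 0.0417 by limma), against 1.58% higher and 2.83% lower of all genes. Its 0.70 in clr4D lay above 0.25 and 0.48 in wild type, but 3 of its 4 probes carry the shared suffix and may also read tef102 and tef103. These had differences of 0.27 and 0.24 that did not pass (adjusted p = 0.14 and 0.245 by limma). The tef101 call was lost under 7 of the 10 alternatives that could be tested, and its value ran from 0.26 to 0.52. Each mutant has 1 array, which the fit assumes to vary like the wild-type pair. The clr4D array shared no slide with a wild-type array, so slide and genotype cannot be told apart in its differences. The simulation given next makes the same assumption about the mutant array, with a common spread for all genes and no slide effect. It therefore cannot test that assumption. On simulated data for swi6D bodies the fit recovered 83 of 100 genes changed by 0.5 and 100 of 100 changed by 1.

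Outside the bodies 3 windows passed. After the end, tpi1 was higher in swi6D than in wild type by 0.54 (SE 0.116, adjusted p = 0.00757 by limma), where 0.323% of all genes were higher and 2.16% lower. All 3 of its probes there were higher in swi6D, at 0.59, 0.94 and 0.68, against 0.12, 0.19 and 0.08 in wild type 1 and 0.20, 0.46 and 0.16 in wild type 2. Those at 411 and 711 bp past the end lie beyond the 245 bp gap to pog1. swi6D shared a slide with wild type 2 alone, and against that array the difference was 0.46. In clr4D the same window was not past the test (0.24, adjusted p = 0.348 by limma), and no other end passed in clr4D (1 of 10 higher and 1 lower at an unadjusted p under 0.05), where 0.606% of all genes were higher and 1.86% lower. After the end of act1 the difference was -0.41 in swi6D (adjusted p = 0.0572 by limma) and -0.26 in clr4D (adjusted p = 0.294 by limma), both short of the threshold. The call of tpi1 was lost with a flank of 500 bp (0.53, adjusted p = 0.468 by limma), with normexp (0.22, adjusted p = 0.357) and on the ChIP channel alone (0.60, adjusted p = 0.268).

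Before the start, pgk1 was higher in swi6D by 0.47 (SE 0.128, adjusted p = 0.0136 by limma), against 0.121% higher and 2.16% lower of all genes. On the shared slide this difference was 0.44. The extract in this window was low, at -2.38 in swi6D and -2.01 and -2.19 in wild type. The call was lost on the ChIP channel alone (0.19, adjusted p = 0.975 by limma), with the median over probes (0.32, adjusted p = 0.395) and with tiles moved to the right (0.35, adjusted p = 0.134), and normexp gave 1.36. In clr4D it was 0.34 and did not pass (adjusted p = 0.16 by limma). eno101 was lower in clr4D by 0.47 on the log2 scale (limma -0.47, SE 0.128, adjusted p = 0.0122), against 0.526% higher and 2.51% lower of all genes. This rested on the probe 216 bp before its start, which had -0.29 in swi6D, -0.55 in clr4D and 0.86 and 0.25 in wild type. The call was lost under 6 of 12 alternatives, among them the median over the 3 probes (-0.27, adjusted p = 0.43 by limma), and a flank of 500 bp gave -1.1. In swi6D the eno101 window differed by -0.20 and did not pass (adjusted p = 0.722 by limma).

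The same probe before eno101 stood out on the H3K9me2 arrays, with 3.56 in pds5D and 4.47 in wild type. Its neighbours 300 bp to either side had 0.66 and 0.63 in pds5D and 0.32 and 0.36 in wild type. A single probe 615 bp before tdh1 had 1.36 in pds5D and 3.20 in wild type beside probes below 0. Its Pds5-GFP was -0.72 in swi6D, -0.70 in clr4D and -0.09 and -0.28 in wild type, so at both single probes both mutants lay below both wild-type arrays. Over the bodies, H3K9me2 reached 1 in act1 (2.72 in pds5D, 2.51 in wild type) and fba1 (1.27 in pds5D, 1.37 in wild type). That is 2 of 10 genes on both arrays, against 11.9% of all genes in pds5D and 7.35% in wild type. Along act1 the mark was higher towards mei4, with 2.21 in pds5D and 2.06 in wild type at the first body probe, 3.93 in pds5D and 3.40 in wild type at the last, and 5.17 in both at 805 bp past the end. The wild-type mean of Pds5-GFP was between 0.56 and 0.62 at the first 4 body probes of act1, 2.23 at 505 bp past the end and 1.82 at 805 bp. At all probes of fba1 and its flanks H3K9me2 lay between 0.71 and 2.01 in pds5D. In wild type it lay between 1.0 and 1.82. The end minus start of the mark was 0.75 in pds5D and 0.03 in wild type. Pds5-GFP was low over the fba1 body. No body met the size rule of a difference of 1 with a ratio of 1 on either array, against 2.2% higher and 0.202% lower of all genes in pds5D. The differences over the bodies ran from -0.31 in tef103 to 0.85 in gpm1. The extract over the gpm1 body also differed, at -2.07 in pds5D and -1.32 in wild type. It was lower in pds5D over adh1 (-1.53 against -0.58) and tdh1 (-1.01 against -0.11) too. Over tef101 it was 0.34 on both arrays, and over act1 it was higher in pds5D (-0.93 against -1.02). How far the extract enters these differences was not tested. After the end of tpi1 the mark was 1.39 in pds5D and 0.20 in wild type, and all 3 probes there were higher in pds5D. With 1 array a genotype, none of these differences has a replicate check.

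**Figure D5:**
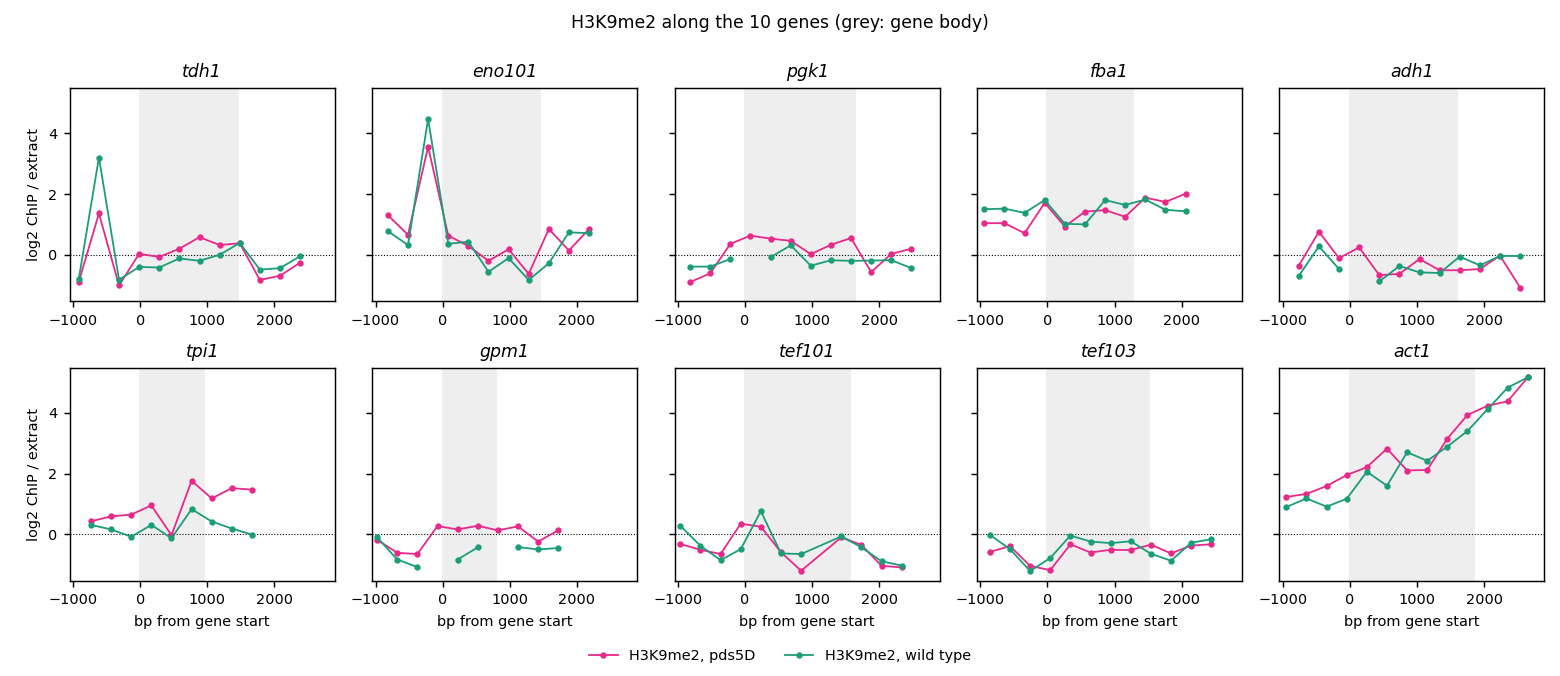
H3K9me2 at each probe along the 10 genes, as log2 ChIP over extract (vertical) against the distance in bp from the gene's start (horizontal), in pds5D and wild type with 1 array each. Grey marks the gene body and a missing point is an outlier spot; act1 reaches 5.17 on both arrays, fba1 stays above 0.7, and eno101 and tdh1 have single high probes before their start.

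Other genes of the same pathways gave the setting. Of 13 measured genes of glycolysis and fermentation, 4 had bodies higher than the median and 7 lower in wild type, against 41.2% and 40.9% of all genes, with a median of -0.18. The end was higher than the body in 8 of them and lower in 1, against 39.4% and 14.3% of all genes. The lowest body was that of fbp1, fructose-1,6-bisphosphatase of gluconeogenesis, at -0.73, and pyk1, pyruvate kinase, had the next to largest end minus body difference at 0.87, after pdc101, a pyruvate decarboxylase gene, at 0.92. The highest body was that of pdc102, with -0.37 in swi6D, -0.28 in clr4D and 2.78 and 2.91 in wild type. H3K9me2 over pdc102 was 4.99 in pds5D and 5.54 in wild type, above that over the other bodies of this list. In swi6D 4 of the 13 bodies were lower than in wild type (pdc102, adh4, eno102 and pdc101), against 3.72% of all genes, and in clr4D 2 (pdc102 and eno102), against 2.83%. Among the paralogs of members, eno102, 63.2% identical in coding sequence to eno101, had a body of -0.23 in swi6D, -0.24 in clr4D and 0.08 and 0.20 in wild type, and passed as lower in both mutants (-0.37 and -0.38, adjusted p = 0.0171 and 0.011 by limma). Its H3K9me2 was 1.59 in pds5D and 1.14 in wild type. adh4 is another listed alcohol dehydrogenase gene, and its sequence was not compared with that of adh1. The adh4 body had 0.09 in swi6D, 0.80 in clr4D and 0.59 and 0.62 in wild type, a difference of -0.51 in swi6D. gpd3, the near copy of tdh1, had -0.23 in swi6D, -0.29 in clr4D and -0.17 and -0.22 in wild type. tef102 had 0.20 in swi6D, 0.42 in clr4D and 0.06 and 0.23 in wild type.

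Of 5 other elongation genes, 1 body was higher and 3 were lower, against 41.2% and 40.9% of all genes, and 3 had a higher end than body, against 39.4%. The largest such difference was in tef3, which encodes elongation factor 3, at 1.25. tef5 passed as higher in clr4D (0.46, adjusted p = 6.92e-04 by limma). Of 11 other genes of the actin and tubulin cytoskeleton, 1 body was higher (myo1, a class I myosin, 0.28) and 5 were lower, and 5 had a higher end than body, against the same shares of all genes. All 11 were lower than the median before the start, against 48.3% of all genes. cdc8, which encodes tropomyosin, was the only one of the 11 whose body passed in a mutant, lower in swi6D (-0.38) and in clr4D (-0.37, adjusted p = 0.0106 and 0.0189 by limma).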

How the data were processed

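The data are 6 Agilent 2-colour arrays of ChIP DNA against whole-cell extract DNA. The scanner's processed signals are intensity values that version 12.0.3.1 of Agilent's Feature Extraction had background-subtracted and dye-normalised, per the file headers, and the median spot and local background signals are uncorrected intensity values per the file headers. Flags that mark controls, outliers, saturation and dimness were also read, per the file headers. The deposited table holds log2 ratios of ChIP over extract by the authors, not centred; they lay within 0.01 of the scanner's ratio in all but 1 to 8 of 41251 positions per array, and their column medians ran from -0.209 to -0.0544. Not given in the sources used here is the genome build behind the array's positions. Tiles were laid on ASM294v3 by fixed shifts in blocks, and gene spans and strands are from its RefSeq annotation.

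Control and outlier spots were left out, and no loess or quantile step was used. Each probe was given log2 of processed Cy5 over processed Cy3 minus the array median. Window means went into limma 3.58.1 (R 4.3.3, lmFit and eBayes) for the 4 Pds5-GFP arrays in 3 groups, over every gene with at least 2 body probes, with Benjamini-Hochberg adjustment and a threshold of 0.05. Only the wild-type pair gives the fit its 1 residual degree of freedom, and the spread was pooled over genes. H3K9me2 has 1 array a genotype and was not tested. The fit was tested on simulated data, drawn for the 4 Pds5-GFP arrays with a common spread taken from the wild-type pair and no slide effect. Recovery where a mutant array varies more than that pair was not tested. Alternatives were the ChIP channel alone, normexp with offset 50, loess, no dim spots, the deposited values, the median over probes, tiles moved by 300 bp, no probes with a shared suffix, a flank of 500 bp, at least 3 body probes and each wild-type array left out. Added after the data were seen were G and C content taken out by lowess, the mutant contrasts before the start and the rule for low levels. A slide block left no residual degree of freedom and was not run. Members, lists and alternatives were chosen with earlier results of these data known. All 10 members are named, with their neighbours, their paralogs and the listed genes whose body passed in a mutant. Listed genes that passed only in wild type are mostly counted without being named. Sequence likeness was computed with BLAST 2.17.0 and codon adaptation over 132 ribosomal protein genes. The number of arrays limits the precision.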

Additional observations from a re-analysis of the deposited data

How the results depend on the processing

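On the ChIP channel alone, 81 bodies passed in swi6D and 118 in clr4D (32 of them higher), against 221 (37 higher) and 218 (78 higher). In the same setting 62 ends and 25 starts passed in swi6D, against 123 and 113, and 21 starts in clr4D, against 150, while 966 genes met the rule for low levels, against 309, and 71 the H3K9me2 rule, against 119. Of the 10 genes, 2 starts were higher, 5 had a higher end than start and 3 a lower one, 5 met the rule for low levels, and 0 that for high levels or any mutant contrast there. With normexp, 1670 end minus body differences passed, against 2657, and in swi6D 1675 bodies (365 higher), 1207 ends (430 higher, against 16 of 123) and 1502 starts (944 higher, against 6 of 113). In clr4D normexp gave 74 bodies (13 higher), 45 ends, against 122, and 54 starts. Of the 10 genes normexp gave 0 starts higher and 1 end lower in wild type, 4 bodies and 3 starts higher in swi6D and 1 each of body, end and start lower, 0 calls in clr4D and 1 low level. Loess gave 89 bodies (3 higher) and 55 starts in swi6D, 105 bodies (23 higher) and 71 starts in clr4D and 163 low levels. Of the 10 it gave 0 starts higher, 1 end lower, 1 low level and 0 calls in clr4D bodies and starts.

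The deposited values gave 0 starts higher and 0 bodies in clr4D. The median over probes gave 1 body higher, 0 high levels, 0 bodies in clr4D, 0 starts in swi6D and, in clr4D, 1 start higher and 0 lower. With tiles 300 bp to the left, 1 body and 0 starts were higher, 1 gene each had a lower end than start and than body, and 0 bodies passed in clr4D. With tiles to the right, 4 bodies were higher, 2 met the high and 0 the low level, 1 end was lower in swi6D and 0 starts passed in either mutant. Without probes with a shared suffix, which leaves tdh1, tef101 and tef103 with too few, 1 body was higher, 5 ends exceeded the start and 0 bodies passed in clr4D, and over all genes 50 ends and 71 starts passed in swi6D and 42 ends and 99 starts in clr4D. A flank of 500 bp gave 2 genes with a lower end than start, 0 ends higher and 1 start lower in swi6D, and over all genes 34 ends and 72 starts in swi6D and 32 ends in clr4D. At least 3 body probes gave 1 end lower in swi6D. With G and C content taken out, 3 starts were higher, 3 genes had a lower end than start, 5 a higher and 2 a lower end than body, 0 passed in clr4D bodies and starts, and 0 met the low level. Leaving out 1 wild-type array gave 365 to 468 low levels, 2 to 4 of them among the 10.

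Values that changed sign, with a call on at least 1 side of the change, were these. With G and C content taken out, eno101 (0.15) and adh1 (0.21) before the start, tdh1 (-0.28), eno101 (-0.55) and fba1 (-0.04) for end minus start, and tdh1 (-0.23) and tef103 (-0.24) for end minus body. On the ChIP channel alone, eno101 before the start (0.81), gpm1 after the end (-0.27), eno101 (-3.22) and fba1 (-0.53) for end minus start, and eno101 (-0.09), pgk1 (-0.01) and adh1 (-0.03) for end minus body. With a flank of 500 bp, eno101 before the start (0.55) and for end minus start (-0.77). With tiles moved, the bodies of gpm1 (0.13, right) and tef101 (-0.00, left) and the end minus body of tdh1 (-0.22, left). With normexp, the end of pgk1 (0.04) and the swi6D differences of eno101 (1.07) and fba1 (0.55) over the body. For these the cause was not tested. Of the other results for single genes, 55 lost the call and 36 gained it. The other 1353 did neither, and 89 of them changed sign, 0 of these with a call on either side. No paired test was run. Among the Pds5-GFP arrays only swi6D and wild type 2 shared a slide, and a lone pair gives no spread. The number of arrays limits the precision, and the limit set by signal over background was not measured.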
